A study of Homo sapiens with 8 samples.

Results

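The E proteins and the ID proteins that inhibit them were followed in the Ago2-RIP-Chip data of ST486 cells, a human cell line established from Burkitt lymphoma. The genes are TCF3, TCF4 and TCF12, which encode the E proteins, and ID1, ID2, ID3 and ID4, which encode their inhibitors. Every array probe whose RefSeq accession belongs to one of these 7 genes was taken, which gave 10 probes, 5 for the E proteins and 5 for the ID proteins, out of 23958 probes of 16557 genes with a symbol. TCF4, ID1, ID3 and ID4 have 1 probe each, and TCF3, TCF12 and ID2 have 2 probes each. All 10 probes were detected in 8 of 8 channels and passed the filters on detection and on dye differences, 0 spots were saturated and 0 were outliers.

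The study asked which transcripts become bound to Ago2, the protein that carries miRNAs to their targets, when miR-155 is added to cells that make little of it. ST486 cells carried the retroviral MXW-PGK-IRES-GFP vector, either empty (EV-ST486, here EV cells) or with the miR-155 precursor (miR-155-ST486, here miR-155 cells), so that both groups share the transduction and GFP. The total (T) fraction is RNA of the lysate, and the immunoprecipitated (IP) fraction is RNA recovered with an antibody against Ago2. Sorting of GFP+ cells is described for the check of miR-155 levels, and whether the cells on the arrays were sorted is not given in the sources used here. Both dyes, Cy3 and Cy5, were used on each of these 4 RNA samples, and the IP and total RNA of a cell population shared 2-colour Agilent arrays in both dye orientations, 4 arrays in all. With n = 1 RNA sample per condition no test was possible and no p-value is given. The dye orientations are technical repeats, and their difference is the error given with each value. The arrays came from 2 slides, of which 0 carried both vectors, so slide and vector cannot be told apart, whereas IP and total RNA of one vector shared their arrays.

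E proteins are basic helix-loop-helix transcription factors that bind E-box motifs as dimers with each other or with tissue-restricted partners, and B cells need them for commitment, immunoglobulin rearrangement and the germinal centre. ID proteins have the helix-loop-helix but lack the basic region, so that an E protein paired with an ID protein does not bind DNA. The balance of TCF3 and ID3 is a known lesion of Burkitt lymphoma, in which ID3 is often inactivated by mutation and TCF3 drives B cell receptor signalling and CCND3.

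The ectopic miRNA is shown because its seed, bases 2 to 8 and in capitals here, is the part that pairs with a target. In RefSeq (GRCh38.p14) the mature miRNA is 24 bases long and lies on the + strand at chr21:25573983-25574006.
hsa-miR-155-5p: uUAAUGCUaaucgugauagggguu
The 8-mer site that the seed defines in a transcript, the complement of bases 2 to 8 followed by A, reads AGCATTAA, and its 6-mer core reads GCATTA. The members' transcripts were not searched for these sites, since no transcript sequence was used here.

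Across the 7 genes, one transcript stood out. For TCF4 the IP/T ratio was 0.994 with the empty vector and 3.06 with miR-155, while the other 9 probes had miR-155/EV ratios between 0.818 and 1.36. Dividing the IP/T ratio of miR-155 cells by that of EV cells gives the miR-155/EV ratio. The E protein probes had a median IP/T ratio of 0.994 in EV cells and 1.08 in miR-155 cells, and the ID probes of 1.37 and 1.5, beside 0.9 and 0.882 over all 15529 probes kept. Signals are quantile-normalized array intensities in arbitrary units. They depend on the probe and are compared within a probe only. Similar amounts of RNA were labelled from both fractions, so an IP/T ratio is relative to the rest of the IP RNA and is not the share of a transcript that was pulled down.

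**Figure D1:**
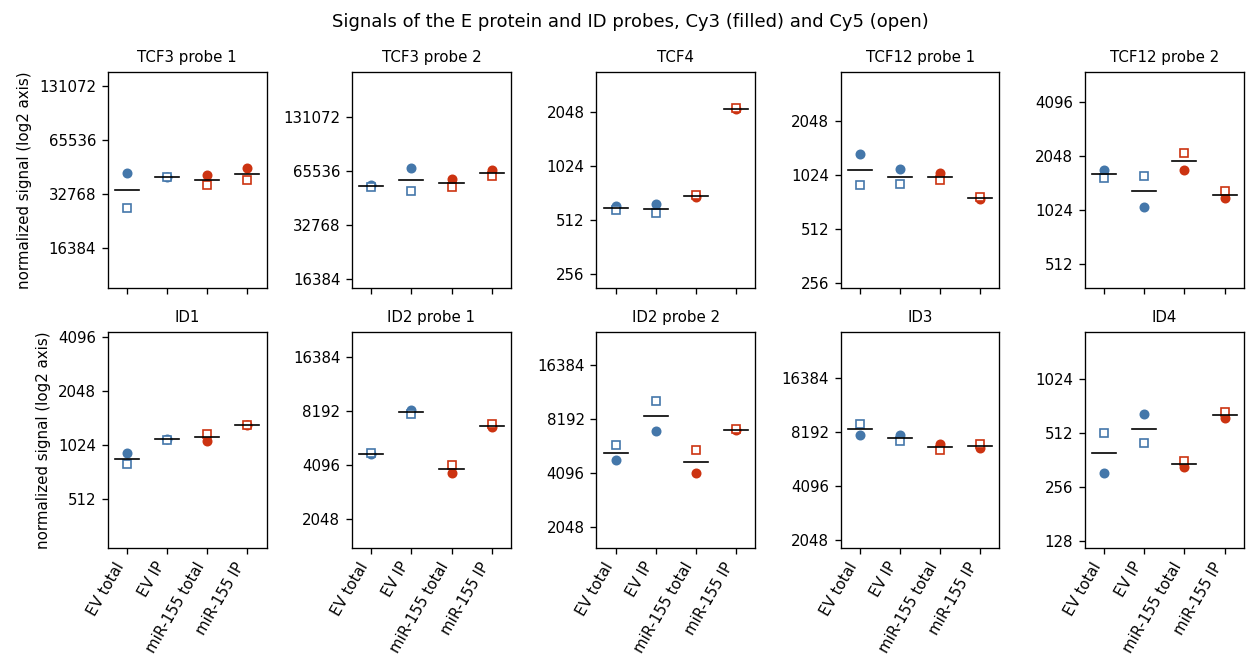
Normalized signal (log2 axis, arbitrary units) of the 10 probes in the 4 RNA samples, 1 panel per probe. Filled circles are Cy3 labellings, open squares Cy5 labellings and lines their means, EV cells in blue and miR-155 cells in red. The TCF4 signals of 2122 and 2144 in the miR-155 IP fraction stand above its other channels, and elsewhere the 4 samples lie within about 2-fold of each other (at most 2.08-fold, for ID2 probe A_23_P143143). In all plots probe 1 is A_23_P67708 for TCF3, A_23_P151930 for TCF12 and A_23_P143143 for ID2.

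TCF4 encodes the E protein E2-2, which is needed for plasmacytoid dendritic cells and contributes to early B cell development. Its probe (A_23_P27332) gave signals of 608 (Cy3) and 577 (Cy5) in the EV total fraction and of 622 and 557 in the EV IP fraction. In miR-155 cells it gave 686 and 706 in the total fraction and 2122 and 2144 in the IP fraction. The EV fractions overlapped, the miR-155 total fraction lay just above them, and the miR-155 IP fraction lay far above all other channels. The IP/T ratio was 0.994 in EV cells (0.916 with total RNA in Cy3, 1.08 with IP RNA in Cy3) and 3.06 in miR-155 cells (3.13 and 3.003).

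The miR-155/EV ratio of TCF4 was 3.08, with 3.41 from the arrays with total RNA in Cy3 and 2.78 from those with IP RNA in Cy3. Between these orientations it differed by 0.29 on the log2 scale, close to the median difference of 0.30 over all kept probes. Ranked by this ratio, the TCF4 probe was in place 18 of the 15529 probes kept. The difference lay in the IP fraction, where the signal was 3.62-fold higher in miR-155 cells than in EV cells (3.85 and 3.41 by orientation), whereas the total signal was 1.18-fold higher (1.13 and 1.23). TCF4 is among the genes that the study itself selected on these arrays by the same ratios, so its values describe the selection and are not independent evidence of it.

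The TCF4 ratio depended on the background correction. With normexp background correction and quantile normalization the miR-155/EV ratio was 1.54 and the IP/T ratio in miR-155 cells 1.45, and with normexp followed by loess and Aquantile they were 1.74 and 1.70, both below the 2-fold threshold. Normexp also moved the median log2 IP/T ratio of all kept probes up by 0.12 to 0.16. Fewer of all kept probes then passed both 2-fold thresholds of the study. The share was 0.052% with quantile normalization and 0.201% with loess and Aquantile, beside 0.438% in the main processing. Among the local backgrounds of the spots, control spots included, 33 were above 500. When these were replaced by the median of their channel, a setting chosen after seeing the data, the miR-155/EV ratio was 2.79 with quantile normalization and 2.99 with loess and Aquantile, and the IP/T ratio in miR-155 cells was 2.41 and 2.78. In all 10 alternatives that give a value, the miR-155/EV ratio lay above 1, between 1.54 and 3.41. The alternatives are not independent of the main value, which averages the single dye orientations, and no member spot was an outlier to leave out. The direction of the TCF4 total signal depended on the setting. In 4 of the 10 it was lower in miR-155 cells than in EV cells, at the lowest 0.859-fold.

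**Figure D2:**
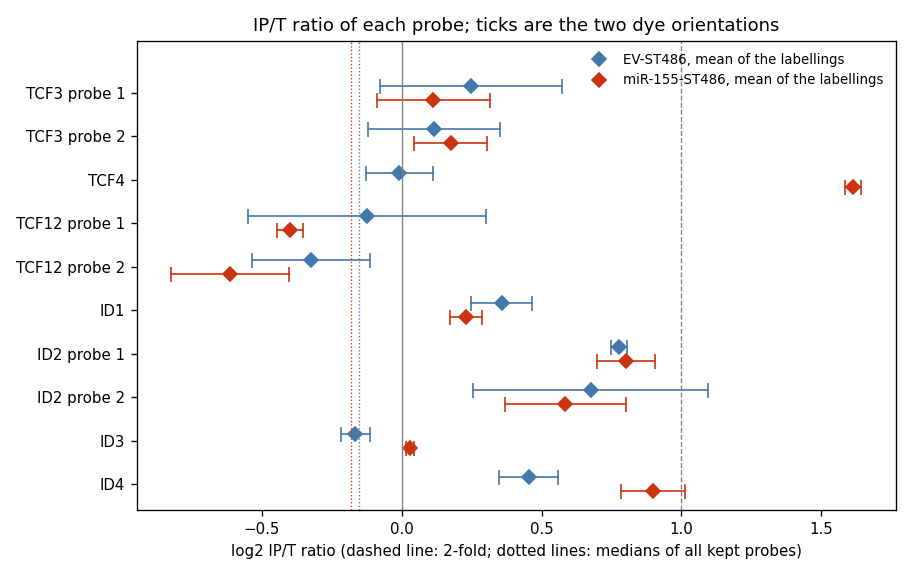
Log2 IP/T ratio of each probe in EV cells (blue) and miR-155 cells (red). Diamonds are the means of the labellings and ticks the dye orientations, with the 2-fold threshold dashed and the medians of all kept probes dotted. The TCF4 diamonds lie at -0.01 and 1.62, and the TCF3, ID1, ID2 and ID4 diamonds lie to the right of the medians in both vectors but below the threshold.

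TCF3 encodes the E12 and E47 proteins, the E proteins that B cell commitment rests on and that act in Burkitt lymphoma. Its probe A_24_P365365 gave 54868 and 53680 in the EV total, 68473 and 50451 in the EV IP, 59371 and 53680 in the miR-155 total and 66370 and 61142 in the miR-155 IP fraction, Cy3 first. The miR-155 IP labellings lay above both total fractions and inside the range of the EV IP labellings. The other probe, A_23_P67708, gave 43015 and 27479, 40920 and 40765, 41944 and 36676, and 45625 and 39415 in the same order, and its 4 fractions overlapped.

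The IP/T ratios of TCF3 were close to 1 on both probes. They were 1.08 in EV cells and 1.13 in miR-155 cells on A_24_P365365 and 1.19 and 1.08 on A_23_P67708, which gives miR-155/EV ratios of 1.04 and 0.91. By orientation the miR-155/EV ratio lay on both sides of 1 on A_24_P365365 (1.12 and 0.969) and at 0.992 and 0.835 on A_23_P67708. The 2 probes thus lay on opposite sides of 1 in this ratio, and on each the vectors differed by less than the orientations did. The total signal was 1.04-fold and 1.14-fold higher in miR-155 cells. After normexp correction A_23_P67708 no longer passed the filter on dye differences, because its EV total labellings differed by 2.05 to 2.63-fold.

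TCF12 encodes HEB, the E protein best known from thymocytes and also made in B cells. Its probe A_24_P82142 gave 1715 and 1541 in the EV total, 1064 and 1586 in the EV IP, 1718 and 2116 in the miR-155 total and 1195 and 1300 in the miR-155 IP fraction. The miR-155 IP labellings lay below both total fractions and within the EV IP labellings. The probe A_23_P151930 gave 1345 and 898, 1106 and 917, 1053 and 963, and 753 and 773 in the same order, and the miR-155 IP labellings were the lowest of its 8 channels.

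TCF12 had the lowest IP/T ratios of the 7 genes in miR-155 cells. On A_24_P82142 the IP/T ratio was 0.799 in EV cells (0.925 and 0.69 by orientation) and 0.654 in miR-155 cells (0.757 and 0.565). On A_23_P151930 it was 0.916 (0.682 and 1.23) and 0.758 (0.735 and 0.783). The miR-155/EV ratios of 0.818 and 0.827 were similar on the 2 probes. The orientations gave 0.818 and 0.818 on A_24_P82142 and 1.08 and 0.636 on A_23_P151930, so the value of A_23_P151930 was not distinguishable from 1 within the labelling error.

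The probes of ID1, ID2 and ID4 had IP/T ratios above 1 in EV cells and in miR-155 cells alike. ID2, an inhibitor that is induced by TGF-beta family and cytokine signals and opposes TCF3 in lymphoid cells, had the highest IP/T ratios of the 7 genes in EV cells. Its probe A_23_P143143 gave 4674 and 4745 in the EV total, 8292 and 7848 in the EV IP, 3668 and 4089 in the miR-155 total and 6629 and 6873 in the miR-155 IP fraction. The 4 fractions did not overlap, and both IP fractions lay above both total fractions. The probe A_32_P69368 gave 4840 and 5872, 7011 and 10348, 4122 and 5492, and 7092 and 7185 in the same order, again with both IP fractions above both total fractions.

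The IP/T ratio of ID2 was 1.71 in EV cells (1.68 and 1.75 by orientation) and 1.74 in miR-155 cells (1.87 and 1.62) on A_23_P143143. On A_32_P69368 it was 1.6 (2.14 and 1.19) and 1.5 (1.74 and 1.29). The miR-155/EV ratios were 1.02 and 0.939, and the orientations lay on both sides of 1 on both probes. The total signal was lower in miR-155 cells, at 0.822 of the EV cells value on A_23_P143143 (0.785 and 0.862) and 0.892 on A_32_P69368 (0.852 and 0.935), a difference in one direction on 2 probes and in both orientations. With normexp, loess and Aquantile the IP/T ratio in EV cells was 1.18 on A_23_P143143 and 1.08 on A_32_P69368. Over all kept probes 18.6% had a lower change of the total signal than the first probe and 29.1% than the second.

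ID1 is a target gene of BMP signalling that is best known from proliferating and endothelial cells. Its probe (A_23_P252306) gave 919 and 800 in the EV total, 1105 and 1092 in the EV IP, 1079 and 1181 in the miR-155 total and 1329 and 1315 in the miR-155 IP fraction. Within each vector the IP labellings lay above the total labellings, and within each fraction the miR-155 cells lay above the EV cells. The IP/T ratio was 1.28 in EV cells (1.19 and 1.38) and 1.17 in miR-155 cells (1.22 and 1.13), and the miR-155/EV ratio of 0.914 had its orientations at 1.03 and 0.815. The total signal was 1.32-fold higher in miR-155 cells (1.17 and 1.48), the largest change of the total signal among the 10 probes.

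ID3 is the inhibitor that Burkitt lymphomas often lose through mutation. Its probe (A_23_P137381) gave 7848 and 9099 in the EV total, 7825 and 7249 in the EV IP, 6982 and 6480 in the miR-155 total and 6683 and 7046 in the miR-155 IP fraction. Both EV fractions lay above both miR-155 fractions, and IP and total labellings overlapped in miR-155 cells. The IP/T ratio was 0.891 in EV cells (0.924 and 0.86) and 1.02 in miR-155 cells (1.01 and 1.03), the lowest of the ID probes in both. The total signal in miR-155 cells was 0.796 of that in EV cells (0.89 and 0.712), the lowest value among the 10 probes. An array signal does not show whether the transcript carries a mutation.

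ID4 is mostly studied in the nervous system and in B cell leukaemias, where its gene can be silenced. Its probe (A_23_P59375) gave 307 and 515 in the EV total, 656 and 452 in the EV IP, 333 and 360 in the miR-155 total and 620 and 673 in the miR-155 IP fraction. The IP labellings lay above the total labellings in miR-155 cells, while those of EV cells overlapped. The IP/T ratio was 1.37 in EV cells (1.47 and 1.27) and 1.87 in miR-155 cells (2.02 and 1.72). The miR-155/EV ratio of 1.36 (1.37 and 1.36) was the highest after that of TCF4, although after normexp correction with quantile normalization it was 1.07, with an IP/T ratio of 1.12 in miR-155 cells.

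Counted against the thresholds of the study, a 2-fold IP/T ratio was reached by 0 of 10 probes in EV cells, where 12.1% of all kept probes reached it, and by 1 of 10, that of TCF4, in miR-155 cells, where 12.2% did. An IP/T ratio of at most 0.5 was reached by 0 of 10 probes in either vector, beside 10% of all kept probes in EV cells and 9.83% in miR-155 cells. Both thresholds, 2-fold in the IP/T ratio of miR-155 cells and 2-fold in the miR-155/EV ratio, were passed by 1 of 10 probes, again that of TCF4, and by 0.438% of all kept probes. The miR-155/EV ratio alone was at least 2 for 1.15% of all kept probes and at most 0.5 for 0.477%. With the vectors exchanged 0 of 10 probes passed, and 0.174% of all kept probes did. At a threshold of 1.5 the IP/T ratio was reached by 2 of 10 probes in EV cells, both of ID2, and by 4 of 10 in miR-155 cells, those of TCF4, ID2 and ID4, while 19.3% of all kept probes reached it in each vector. The shares of the 10 probes are those of a small list and were not tested against the other probes.

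**Figure D3:**
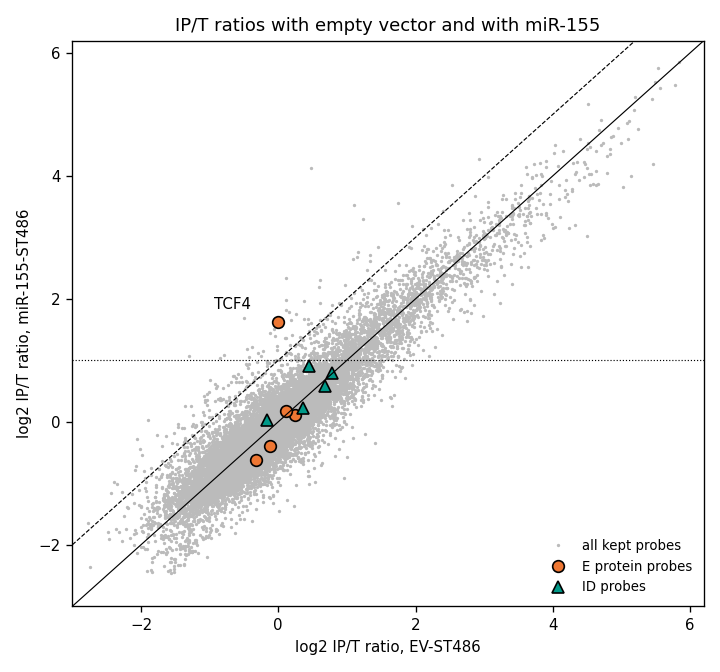
Log2 IP/T ratio in miR-155 cells (vertical) against EV cells (horizontal) for the 15529 kept probes in grey, with the E protein probes as circles and the ID probes as triangles. The solid line marks equal ratios, the dashed line a miR-155/EV ratio of 2 and the dotted line an IP/T ratio of 2. TCF4 lies above both thresholds, and the other 9 probes lie near the solid line.

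The signals of each fraction were then compared between the vectors. The IP signal was at least 2-fold higher in miR-155 cells for 1 of 10 probes, that of TCF4, and for 1.28% of all kept probes, and at least 2-fold lower for 0 of 10 and for 1.05%. The total signal was at least 2-fold higher for 0 of 10 probes and for 0.676% of all kept probes, and at least 2-fold lower for 0 of 10 and for 0.38%. Between the vectors the total signal of the E protein probes had a median change of 1.14-fold and that of the ID probes of 0.871-fold, beside 1.01-fold over all kept probes. The ranges overlapped, 0.916 to 1.18 for the E protein probes and 0.796 to 1.32 for the ID probes. On the log2 scale the medians, 0.19 and -0.2, were smaller in size than the members' median difference between orientations, 0.325. The lysates hold many cells, so a lower share of cells with a transcript and less of it per cell cannot be told apart. Without quantile normalization the median change of all kept probes from EV cells to miR-155 cells was 0.44 (log2) in the total fraction and 0.44 in the IP fraction. Relative to the median of all kept probes, the TCF4 signal was then 1.2-fold higher in the total and 3.71-fold higher in the IP fraction, the ID3 total signal was at 0.808 and the ID1 total signal at 1.34 of that in EV cells.

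**Figure D4:**
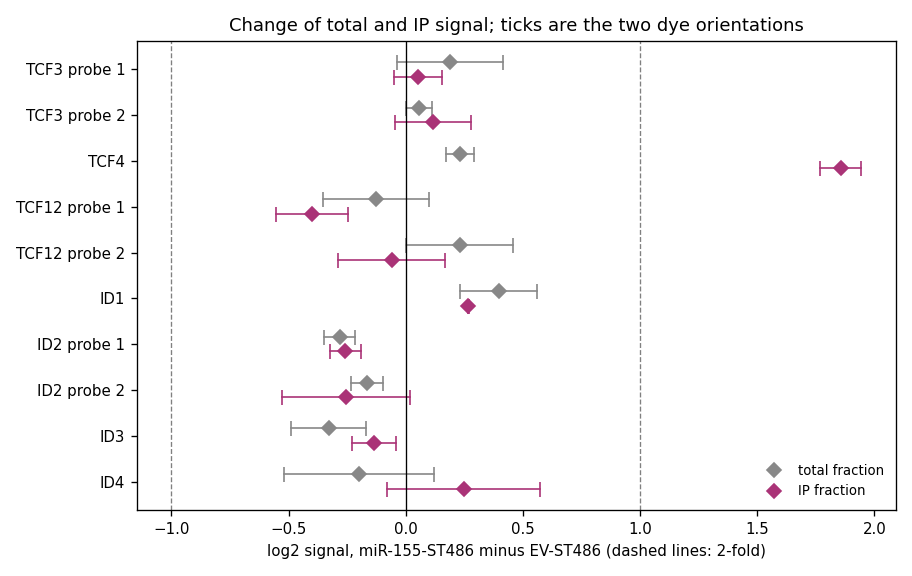
Log2 change of the total (grey) and IP signal (purple) from EV cells to miR-155 cells for each probe. Diamonds are the means of the labellings, ticks the dye orientations and dashed lines a 2-fold change. The TCF4 IP signal differed by 1.86, whereas the total signals of the 10 probes differed by -0.33 to 0.40.

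Among 11043 other kept probes with a symbol, the 3 nearest to the TCF4 probe in the pattern of the 4 RNA samples were those of HOMEZ, IER5 and TRIM32. Distances are Euclidean over the 4 centred log2 sample means. HOMEZ, a homeobox gene, lay at a distance of 0.15 and had IP/T ratios of 1.03 in EV cells and 2.95 in miR-155 cells, although its probe was detected in 6 of 8 channels. IER5, an immediate early response gene, lay at 0.19 with 1.11 and 3.44, and TRIM32, a ubiquitin ligase gene, at 0.35 with 0.71 and 3.21. All 3 belong to the genes that the study selected on these arrays, as TCF4 does, and the part of that selection in the likeness was not tested.

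Genes that work with the E proteins and ID proteins were counted in lists, to be read beside the shares of all kept probes above. Of 18 tissue-restricted helix-loop-helix partners, such as TAL1 and MYOD1, 5 were detected in any channel and 3 were kept, each by 1 probe. Of these NEUROG1, a neuronal factor, had an IP/T ratio of at most 0.5, with 0.435 in EV cells and 0.408 in miR-155 cells. The miR-155/EV ratio was past 2-fold in either direction for 0 of the 3 probes, beside 1.15% of all kept probes at 2 or above and 0.477% at 0.5 or below.

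Of 10 cofactor genes, 6 were kept with 8 probes, and the median IP/T ratio was 0.9 in EV cells and 0.918 in miR-155 cells. A 2-fold IP/T ratio was reached by 3 of 8 probes in each vector. KAT2B, the acetyltransferase PCAF, had IP/T ratios of 6.26 and 5.45 on the probe detected in 8 channels. Its other probe, detected in 6 channels, gave 7.94 and 3.29, a miR-155/EV ratio of 0.415 with orientations at 0.748 and 0.231. The values of this probe rest on low total signals, 31.2 in EV cells and 39.3 in miR-155 cells. CBFA2T3, a corepressor of the ETO family that binds E proteins, had IP/T ratios of 3.92 and 3.03. LMO4, a LIM domain adaptor, lay at 0.439 and 0.646, and its total signal in miR-155 cells was 0.475 of that in EV cells.

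Of 10 genes that control ID expression or stability, 10 were kept with 12 probes, and their median IP/T ratio was 1.05 in EV cells and 1.32 in miR-155 cells. A 2-fold IP/T ratio was reached by 1 of 12 probes in EV cells and by 3 of 12 in miR-155 cells. EGR1, an immediate early factor that induces ID genes, had the highest IP/T ratios of the list, 14.9 and 18.9, and a total signal in miR-155 cells at 0.438 of that in EV cells (0.612 and 0.313 by orientation). The EGR1 probe was detected in 7 of 8 channels, and these values rest on low total signals, 118 in EV cells and 51.8 in miR-155 cells. SMAD5, which carries BMP signals to ID genes, had IP/T ratios of 1.43 and 2.65 and a miR-155/EV ratio of 1.85 (1.99 and 1.72), just below the threshold. SMAD1, named after its values were seen, was the remaining probe past 2-fold in miR-155 cells, at 2.17. FZR1, which targets ID proteins for degradation, had a miR-155/EV ratio of 0.397 from a probe detected in 4 of 8 channels. The BMP receptor gene BMPR2, named after its values were seen, was the 1 probe of the list with a 2-fold higher miR-155/EV ratio (1.15% of all kept probes), at 2.51 (2.72 and 2.33), with an IP/T ratio of 1.52 in miR-155 cells and detection in 5 of 8 channels.

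Of 16 genes that E proteins activate in B cells, 15 were on the array and 14 were kept with 16 probes, with median IP/T ratios of 1.3 in EV cells and 1.17 in miR-155 cells and a median total change of 1.07-fold. A 2-fold IP/T ratio was reached by 3 of 16 probes in EV cells and by 2 of 16 in miR-155 cells. GFI1, a repressor of differentiation genes, had IP/T ratios of 6.87 and 7.99, and RAG1, the recombinase, of 9.41 and 3.84 from a probe detected in 7 channels whose orientations gave miR-155/EV ratios of 0.608 and 0.274. The RAG1 values rest on low total signals, 21.8 in EV cells and 42 in miR-155 cells. CD79B, a chain of the B cell receptor, lay at 0.465 and 0.516. EBF1, named after its values were seen, was the remaining probe past 2-fold in EV cells, at 2.06. The total signal changed by at least 2-fold for 0 of these 16 probes.

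Of 9 genes of the ID3 and TCF3 axis in Burkitt lymphoma, 9 were kept with 13 probes, and the miR-155/EV ratio was past 2-fold in either direction for 0 of the 13 (1.15% and 0.477% of all kept probes). A 2-fold IP/T ratio was reached by 2 of 13 probes in each vector. CDKN1A, the cell cycle inhibitor p21, had IP/T ratios of 3.78 and 3.88. E2F2, a cell cycle transcription factor, had 2.4 and 3.7, with a miR-155/EV ratio of 1.54. PIK3CD, the lymphoid PI3 kinase subunit, lay at 0.394 and 0.459. The median total change of the list was 0.878-fold.

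The labelled cell type was checked against markers. Of 9 B cell markers 8 were on the array and 5 were kept. MS4A1, CD79A, CD79B, CD38 and MME were detected in 8 of 8 channels, whereas PAX5 and CD37 were detected in 0 of 8 by their probes. CD22 was detected in 7 of 8 channels but was not kept. Markers of T cells had 0 of 6 genes kept, those of monocytes and granulocytes 0 of 6, and those of stroma and epithelium 1 of 5, KRT8. Detection in any channel, a looser rule, was met by 1, 2 and 3 genes of these lists. Among them were CD14, in 5 of 8 channels, and a probe of KRT18, in 4 of 8. The KRT8 probe that was kept was detected in 8 of 8 channels, and the other KRT8 probe in 0 of 8. The summed signal of the T cell markers was between 142 and 189 in all channels. The summed signal of the stromal and epithelial markers, most of it KRT8, was lower in the miR-155 total fraction (657 and 693) than in the EV total fraction (974 and 1026), and its part in the changes of the total signals above was not tested. Of 41000 probes, 14094 to 22161 were detected in a channel. No array of an IgG pull-down was analysed here, so binding without Ago2 was not measured.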

How the data were processed

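Lysate RNA and Ago2-IP RNA of ST486 cells with either vector was measured on 4 arrays with 45015 spots each. The authors deposited intensity values from Agilent Feature Extraction 10.5.1.1, which per the file headers subtracted the background and normalized the dyes of each array. They also deposited log2 values, quantile-normalized over the 8 channels and filtered. The file of an array is given with either channel, with the same content, and the channel of a sample's dye was used. Groups, vectors and dyes were taken from the sample titles.

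The 43376 spots outside controls were averaged to 41000 probes, signals below 1 were set to 1, and log2 values were quantile-normalized. Detection required the flags for a positive, significant signal well above background. Of 19469 probes detected in 4 or more of the 8 channels, the 15529 whose Cy3 and Cy5 values differed by at most 2-fold in every RNA sample were kept. Log2 values of the labellings were averaged. The members' values lay within 0.012 (log2) of the deposited log2 values. Symbols were taken from RefSeq accessions, for names only, and 11044 kept probes had one. The array design was built on another genome build, so no gene coordinates are given.

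Every probe of the members is named. From other lists, the kept genes past 2-fold in an IP/T or miR-155/EV ratio were named, at most 3 a list, by size, and for the member with the widest range the 3 nearest probes. The members and lists were chosen with earlier results of these data known. The precision of every value is limited by the few arrays and the single RNA sample per condition. As alternatives, 13 settings and 2 chosen after seeing the data were run: normexp (offset of 50, on median signals) with quantile or with loess and Aquantile, each also with high local backgrounds replaced, no quantile normalization, the deposited log2 values, other filters, arithmetic means, single dye orientations, outlier spots left out and thresholds of 1.5 and 3. The computation of the ratios was checked on simulated data with added changes of known size. The simulated noise was sized from the differences between Cy3 and Cy5, so variation between RNA samples or slides was not part of it. The software was limma 3.58.1 in R 4.3.3, and pandas 2.3.3, numpy 2.4.6 and matplotlib 3.10.9 in Python 3.11.15. The arrays of other cell lines were not analysed here. A gene of the marker lists is not reported here.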

Additional observations from a re-analysis of the deposited data

Results flagged for a closer look

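For ID3 both dye orientations of EV cells gave an IP/T ratio below 1 (0.924 and 0.86) and both of miR-155 cells a ratio above 1 (1.01 and 1.03), which gives a miR-155/EV ratio of 1.15 (1.145 before rounding). With n = 1 RNA sample per condition the difference was not tested. Its size was not unusual, since 3567 of 15529 probes lay as high or higher. On the log2 scale it was 0.195, whereas the orientations differed in this ratio by a median of 0.30. ID4 was also set apart by vector, with IP/T ratios of 1.47 and 1.27 in EV cells and 2.02 and 1.72 in miR-155 cells. The miR-155/EV ratio of ID4, 1.36, was larger than that of ID3. In all 10 alternatives that give a value the ID3 ratio lay above 1, between 1.00 and 1.2. The IP/T ratio of ID3 in miR-155 cells fell below 1 in 3 of them. These alternatives are not independent of the main value, which averages the single dye orientations, and no member spot was an outlier to leave out.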

How the results depend on the processing

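With n = 1 RNA sample per condition the alternatives show how the values depend on the processing and not on the cells, and no left-out replicate or paired analysis was possible because the labellings are repeats of one RNA. With normexp and quantile normalization 0 of the 9 member probes kept came to an IP/T ratio of 2 in miR-155 cells, 0 passed both thresholds and 0 had a 2-fold higher IP signal. All kept probes had shares of 2.44%, 0.052% and 0.114%, and the miR-155/EV ratio of TCF4 was 1.54. With normexp, loess and Aquantile the counts were 0, 0 and 0 of 9 probes, beside 2.23%, 0.201% and 0.159%, and the TCF4 ratio was 1.74. Replacing the high local backgrounds, chosen after seeing the data, brought each of these counts back to 1. The shares of all kept probes were then 6.25%, 0.142% and 0.279% with quantile normalization. With loess and Aquantile they were 6.98%, 0.266% and 0.272%. With the arrays that have total RNA in Cy3 alone, the IP/T ratio of 2 was reached by 1 of 10 probes in EV cells, of ID2, and by 2 of 10 in miR-155 cells, beside 14.2% and 13.4% of all probes. At a threshold of 1.5 the numbers were 2 and 4, beside 19.3% of all kept probes in each vector, and 1 probe, of TCF12, lay at or below the inverse threshold in miR-155 cells, beside 26.8%. In the other 157 comparisons of a count or of the TCF4 ratio with an alternative, the value stayed within 1.5 times the count or within the spread of the labellings. Among the members' other values under the alternatives, 379 moved by less than that spread and 111 by more, and 0 that were past 2-fold changed direction.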
